A study of Mus musculus with 44 samples.

Results

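Translocation junctions of the same break on mouse chromosome 2 were compared between mouse embryonic fibroblasts (MEFs) in which Cas9 cut that site and MEFs in which the restriction enzyme AsiSI cut it together with many other sites. The libraries were chosen by their labels, 3 titled Cas9 DMSO and 6 titled 4OHT DMSO, and held 33686 of the 148726 junctions in the 32 libraries analysed. The 3 Cas9 DMSO libraries gave 3229, 4086 and 3492 junctions. The 6 AsiSI DMSO libraries gave 1244, 2081, 6597, 5018, 1869 and 6070. All 9 libraries were labelled C57BL/6 and wild type, and both groups carried the solvent DMSO. The AsiSI cells were the ER-AsiSI line, which received doxycycline at 3 µg/ml for 24 h to express the enzyme and 4-hydroxytamoxifen (4OHT), which moves the enzyme into the nucleus, at 1 µg/ml for the final 6 h. The Cas9 cells were a separate wild-type line, transfected with Cas9 and guide 48 h before lysis. Their labels also list 4OHT, which the methods do not give for them. Nuclease, cell line, hours of exposure and sequencing run differed together, so their parts in any difference cannot be told apart.

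High-throughput genome-wide translocation sequencing (HTGTS) reads outward from a fixed broken end, the bait, into whatever DNA that end was joined to, the prey. Classical nonhomologous end joining seals ends with few or no shared bases at the join, while alternative end joining uses overlaps (microhomology) that resection has exposed. Cas9 leaves mostly blunt ends, and AsiSI leaves short 3′ overhangs within its recognition motif.

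The bait break lay in a UTR exon of Rsu1 (ENSMUSG00000026727, minus strand, chr2:13076821-13271415 in mm10), 94 bp from the annotated gene start. Rsu1 encodes a Ras suppressor that acts at cell adhesions. The guide target covered the AsiSI motif, so both nucleases cut the same 8 bases, but the Cas9 cut left 2 more bases on the bait side. These sequences are shown because that offset of 2 nt enters every bait-end measurement. They are from the plus strand of mm10, with the bases of the AsiSI motif in capitals.
Guide target with its PAM, chr2:13271307-13271329: ccctgtcccaGCGATCGCgcagg
Bait end after the AsiSI top-strand cut, chr2:13271302-13271321: acacaccctgtcccaGCGAT
Bait end after the Cas9 cut, chr2:13271302-13271323: acacaccctgtcccaGCGATCG

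Junctions over 10 kb from the bait break are called prey away from the bait, and those also over 10 kb from any of the 1109 AsiSI motifs are called distal. Distal prey numbered 2444, 3103 and 2242 in the Cas9 libraries and between 193 and 1827 in the AsiSI libraries, 7789 against 4883 in all. The 3 Cas9 libraries shared a sequencing run, by their read names, with none of the 6 AsiSI libraries, and the AsiSI libraries came from 2 other runs. A further AsiSI library with DMSO, the control of the second wiskostatin replicate, was in the Cas9 run and is given beside the results as the same-run AsiSI library. It has no replicate in that run. Cas9 replicate 2 stood apart by its telomeric reads, 46.1% of prey away from the bait against 3.51% and 3.24% in replicates 1 and 3. AsiSI replicate 5 stood apart by long overlaps at its joins. Of 17 shares fixed for the comparison, 6 differed by an exact two-sided permutation test over the 9 libraries with Benjamini-Hochberg adjustment, each with an adjusted p of 0.0337. Each of the 6 had the smallest p that 84 assignments can give, 0.0119, and in each the groups did not overlap. With each prey position counted 1 time per library none of the 6 passed (adjusted p from 0.0506 to 0.0867), and with 11 AsiSI DMSO libraries bait-end loss, blunt joins over all prey and long overlaps did not (adjusted p = 0.107, 0.056 and 0.0856, exact permutation tests). None of the 6 passed with a single library left out, unless that library was AsiSI replicate 5. The lowest p that the test can give was then 0.0357 without a Cas9 library and 0.0179 without an AsiSI library. This failure to pass therefore cannot show whether the differences depended on a library. Of the 6, the share of prey near the bait turned direction once motif prey was left out of its total. The direction of the share of prey at AsiSI motifs was given in advance by the nucleases.

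The bait ends of the groups peaked at different bases. Among joins away from the bait with no shared base, where the last bait base is unambiguous, the bait ended exactly at the Cas9 cut in 65.6%, 35.6% and 55.2% of Cas9 junctions. In the AsiSI libraries this share was between 0% and 1.16%, with a median of 0.708%. All 3 Cas9 libraries lay far above all 6 AsiSI libraries (adjusted p = 0.0357, exact permutation test, adjusted over the 66 further shares described here, of which 22 had an adjusted p below 0.05). That direction was given in advance, since AsiSI does not cut at this base. In Cas9 replicate 2 a further 33.7% ended 1 nt past the Cas9 cut, against 4.73% and 5.71% in replicates 1 and 3. That excess holds the recurrent telomeric join described below. With AsiSI the same end was at 8.30% to 12.5%, above Cas9 replicates 1 and 3, and at 10.7% in the same-run AsiSI library. The AsiSI ends were more spread. They reached from the AsiSI cut to 2 nt short of it in 37.1% of junctions in the lowest library, 44.4% at the median and 53.6% in the highest, and in 54.6% in the same-run AsiSI library. In the Cas9 libraries only 10.6%, 7.62% and 14.2% ended there (adjusted p = 0.0357, exact permutation test). This stretch starts at the AsiSI cut, so the direction of that difference too was given in advance.

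**Figure D1:**
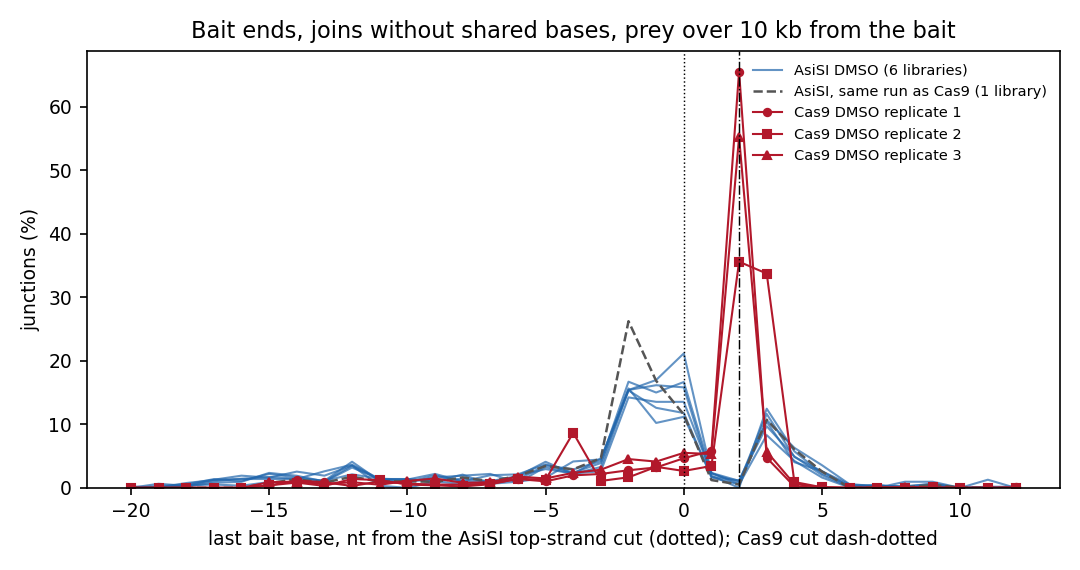
Position of the last bait base (x axis, nt from the AsiSI top-strand cut) as a share of joins without shared bases to prey over 10 kb from the bait (y axis, %). Red lines with points are the 3 Cas9 DMSO libraries, blue lines the 6 AsiSI DMSO libraries, and the dashed grey line the AsiSI library of the Cas9 run. The Cas9 libraries peak 2 nt past the AsiSI cut at 65.6%, 35.6% and 55.2%, where the AsiSI libraries reach at most 1.16%, and Cas9 replicate 2 has a further peak of 33.7% at 3 nt.

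Long loss of the bait end was less frequent with Cas9 in these runs. Bait alignments ended over 10 nt short of the AsiSI cut in 4.54%, 7.04% and 7.74% of Cas9 junctions away from the bait. In the AsiSI libraries the lowest share was 9.62%, the median 11.9% and the highest 16.4%. The groups did not overlap, and the means were 6.44% ± 1.69 (SD, n = 3) and 12.3% ± 2.42 (SD, n = 6). The same-run AsiSI library stood at 6.02%, within the Cas9 range. The adjusted p rose from 0.0337 to 0.145 when loss was counted from each nuclease's own cut, where the Cas9 share was 8.72% ± 2.19 (SD, n = 3), and to 0.0578 without telomeric reads (exact permutation tests). The primer side also limits this measure, since the longest loss seen was 15 nt in the Cas9 run and between 19 and 21 nt in the 6 AsiSI libraries. Counting only bait ends that every library could measure brought the AsiSI shares to between 8.30% and 12.9%, left those of Cas9 as they were, and gave a difference of the means, Cas9 minus AsiSI, of -3.27 percentage points (p = 0.0119, exact permutation test).

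The loss was also read by join class. Among joins with under 6 nt of overlap, loss over 10 nt was at 4.23%, 6.49% and 5.58% with Cas9, against 12.1% at the lowest, 15.9% at the median and 19.8% at the highest with AsiSI (adjusted p = 0.0357, exact permutation test). The same-run AsiSI library again lay lower than those 6, at 7.58%. Among joins with 6 nt or more of overlap the order was the other way, at 9.52%, 21.55% and 17.3% with Cas9. With AsiSI the lowest share was 2.205%, the median 3.96% and the highest 15.7%, and the same-run AsiSI library had 1.42%. In that class the groups overlapped and the difference did not pass (adjusted p = 0.0524, exact permutation test). Over distal prey only, the Cas9 shares of 4.42%, 7.06% and 8.12% overlapped the AsiSI range of 8.05% to 41.6% and did not pass (p = 0.107, adjusted p = 0.177, exact permutation test).

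Blunt joins were more frequent with the Cas9 bait. They made up 37.9%, 24.7% and 27.9% of distal prey in Cas9 replicates 1, 2 and 3. In the AsiSI libraries the lowest share was 7.39%, the median 15.2% and the highest 16.04%, and the same-run AsiSI library had 20.4%. Every Cas9 library was above every AsiSI library, with means of 30.2% ± 6.93 (SD, n = 3) and 14.1% ± 3.29 (SD, n = 6; adjusted p = 0.0337, exact permutation test). Over all prey away from the bait, where AsiSI ends joined to other AsiSI ends enter too, the means were 29.7% ± 6.86 (SD, n = 3) and 15.6% ± 3.21 (SD, n = 6; adjusted p = 0.0337, exact permutation test).

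Blunt joins whose bait end was exactly the Cas9 cut were set apart from the rest. AsiSI does not cut at that base, so a difference in such joins was given in advance. In distal prey outside repeats, such joins were 29.6%, 26.2% and 19.5% of junctions with Cas9 and between 0% and 0.197% with AsiSI (adjusted p = 0.0357, exact permutation test). Blunt joins with any other bait end were at 9.68%, 8.97% and 8.61% with Cas9 and ranged from 7.38% through a median of 13.4% to 15.3% with AsiSI. These groups overlapped and the difference did not pass (p = 0.0952, adjusted p = 0.165, exact permutation test). That class leaves out the Cas9 cut but keeps the AsiSI cut, so the split cannot locate the excess of blunt joins.

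**Figure D2:**
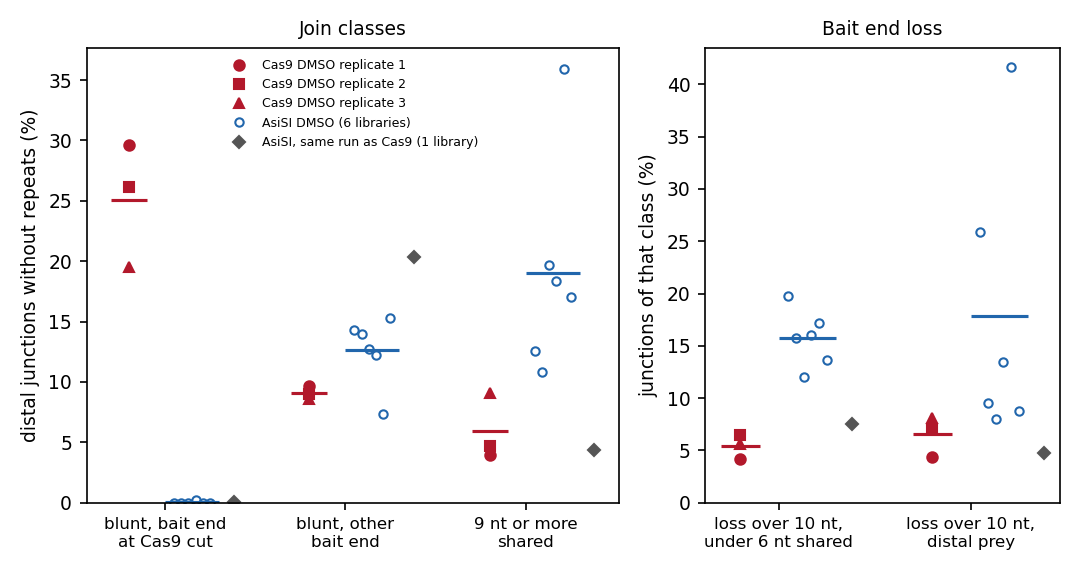
Join classes of distal prey without repeats (left, % of those junctions) and bait-end loss over 10 nt (right, % of junctions of the named class). Each point is a library, red for Cas9 DMSO, blue for AsiSI DMSO and grey for the AsiSI library of the Cas9 run, and bars are group means. Blunt joins at the Cas9 cut hold 19.5% to 29.6% with Cas9 and at most 0.197% with AsiSI, while blunt joins with other bait ends overlap.

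Long overlaps were rarer with the Cas9 bait over all prey away from the bait. Joins with 6 nt or more of overlap were at 5.80%, 3.68% and 18.5% with Cas9. With AsiSI the lowest share was 26.1%, the median 32.0% and the highest 50.9%, and the same-run AsiSI library had 25.3%. Cas9 replicate 3 was the highest of its group but lay below all the AsiSI libraries (means 9.33% ± 8.03, SD, n = 3, and 35.4% ± 10.2, SD, n = 6; adjusted p = 0.0337, exact permutation test). Bait alignments that ran past the guide target were 4.10%, 2.35% and 12.7% of these junctions with Cas9 and between 4.45% and 7.47% with AsiSI. Without them long overlaps were at 2.59%, 1.98% and 10.85% with Cas9, a mean of 5.14% ± 4.95 (SD, n = 3) against 33.6% ± 10.9 (SD, n = 6; p = 0.0119, exact permutation test). Prey at another AsiSI motif has the motif's 8 bases in common with the bait, and overlaps of 8 nt made up 11.5% to 23.1% of AsiSI prey within 500 bp of a motif. In distal prey, which has no exact motif within 10 kb in mm10, the difference did not pass. The Cas9 mean was 8.20% ± 7.09 (SD, n = 3) and the AsiSI mean 23.6% ± 16.3 (SD, n = 6; p = 0.202, adjusted p = 0.344, exact permutation test), with AsiSI replicate 5 at 56.4% and the same-run AsiSI library at 8.27%.

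Within distal prey outside repeats the most common overlap with Cas9 after none was 1 nt, at 29.7%, 24.8% and 22.1%, against 9.42% to 23.1% with AsiSI (median 17.5%) and 30.7% in the same-run AsiSI library. Overlaps of 9 nt or more were at 3.95%, 4.73% and 9.06% with Cas9, and at 10.8%, 17.7% and 35.9% in the lowest, median and highest AsiSI libraries. The groups were apart at 9 nt or more and overlapped at 1 nt, but neither share passed after adjustment (adjusted p = 0.0924 and 0.0714, exact permutation tests), and the same-run AsiSI library had 4.33% at 9 nt or more, within the Cas9 range. Among the shared words of 6 nt or more over all distal prey, ACACACCC was found in 14 Cas9 and 31 AsiSI junctions, and GCAGCAGGAACA in 0 and 20, of which 13 were from AsiSI replicate 5. The bait of ACACACCC joins most often ended 12 nt short of the AsiSI cut and that of GCAGCAGGAACA joins 17 nt short, a loss that the Cas9 run did not measure. The word CCCCACGCCC was found in 5 Cas9 and 20 AsiSI junctions, with the bait end most often 38 nt past the AsiSI cut. The motif itself, GCGATCGC, was the shared word in 1 Cas9 and 25 AsiSI distal junctions, and all 26 lay within 50 bp of the 4 sites 1 base from the motif that are described with the genes.

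Short overlaps of 1 to 5 nt took 34.5% ± 9.47 (SD, n = 3) of distal prey with Cas9 and 34.7% ± 7.11 (SD, n = 6) with AsiSI, and insertions 27.2% ± 18.5 and 27.7% ± 8.001. The Cas9 spread of insertions came from replicate 2, at 48.5% against 16.9% and 16.2%, and in prey outside repeats the 3 libraries were at 9.84%, 15.7% and 13.7%. Neither class differed between the groups by the exact permutation test (adjusted p = 0.999 and 1).

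**Figure D3:**
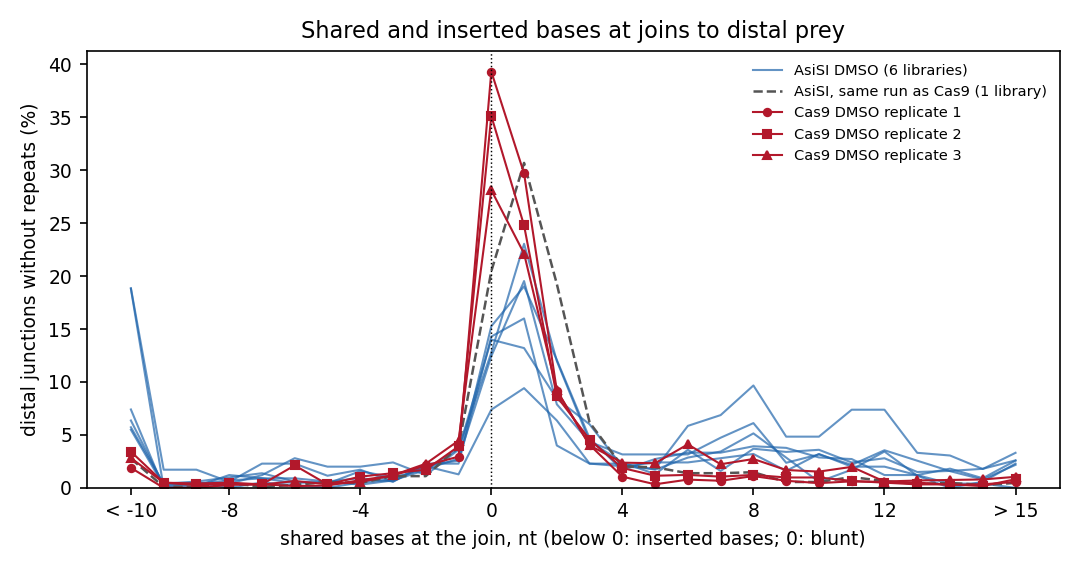
Bases shared by bait and prey at joins to distal prey without repeats (x axis, nt, with inserted bases below 0 and blunt joins at 0) as a share of those junctions (y axis, %). Red lines with points are the Cas9 DMSO libraries, blue lines the AsiSI DMSO libraries and the dashed grey line the AsiSI library of the Cas9 run. The Cas9 libraries peak at 0, the same-run AsiSI library peaks at 1 nt with 30.7%, and the AsiSI libraries hold more joins at 9 nt or beyond, from 10.8% to 35.9%.

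Prey next to the bait was a larger share of all junctions with Cas9, but not of the junctions outside motif prey. Within 10 kb of the break lay 17.1%, 21.5% and 31.5% of all junctions in Cas9 replicates 1, 2 and 3, with a 95% Wilson interval of 15.8% to 18.4% for replicate 1. In the AsiSI libraries the lowest share was 6.44%, the median 6.97% and the highest 7.96%, and the same-run AsiSI library had 9.12%. The groups did not overlap, with means of 23.4% ± 7.39 (SD, n = 3) and 7.03% ± 0.519 (SD, n = 6; adjusted p = 0.0337, exact permutation test). Motif prey fills most of the AsiSI total and little of the Cas9 total. Of near-bait and distal junctions alone, the near-bait share was 18.4%, 22.04% and 32.9% with Cas9 and 18.9%, 27.2% and 33.9% in the lowest, median and highest AsiSI libraries, with 29.5% in the same-run AsiSI library. The groups then overlapped, and the Cas9 mean of 24.5% ± 7.54 (SD, n = 3) was below the AsiSI mean of 26.6% ± 5.06 (SD, n = 6; p = 0.619, adjusted p = 0.881 over 13 such shares, exact permutation test).

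These junctions were split by side and by the direction in which the prey was read. Prey past the break and read outward, the geometry of a deletion from the broken end, was 11.6%, 15.7% and 18.9% of near-bait and distal junctions with Cas9. With AsiSI it was 11.1%, 16.6% and 23.97% in the lowest, median and highest libraries, and 11.97% in the same-run AsiSI library. The groups overlapped (p = 0.56, adjusted p = 0.881, exact permutation test). Prey past the break but read inward, the geometry of an inversion, was at 4.71%, 2.54% and 11.04% with Cas9 and between 3.39% and 7.94% with AsiSI, and the same-run AsiSI library lay above all of them at 16.2% (adjusted p = 0.881, exact permutation test). Before the break the groups overlapped for prey read outward and were apart for prey read inward, which was lower with Cas9, and neither passed (adjusted p = 0.774 and 0.217, exact permutation tests).

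As shares of the near-bait junctions alone, the 4 combinations did not pass either. Deletion-type prey was 63.8% ± 6.81 (SD, n = 3) of them with Cas9 and 64.6% ± 6.79 (SD, n = 6) with AsiSI (p = 0.857, exact permutation test). Its distances are free of the total. The median distance from the break was 26.5, 37 and 28 bp in the Cas9 libraries and between 12 and 19 bp in the AsiSI libraries, with 19 bp in the same-run AsiSI library. Of all near-bait junctions, 95.3%, 90.8% and 93.6% lay within 1 kb with Cas9 and between 96.0% and 98.6% with AsiSI (adjusted p = 0.0357, exact permutation test). Deletion-type prey beyond 1 kb was 0.234%, 0.980% and 1.05% of near-bait and distal junctions with Cas9 and at most 0.377% with AsiSI, where the groups overlapped (adjusted p = 0.206, exact permutation test). Bait alignments past the guide target were frequent here, at 20.7%, 8.67% and 30.3% of near-bait junctions with Cas9, between 5.05% and 24.9% with AsiSI and 50.8% in the same-run AsiSI library.

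**Figure D4:**
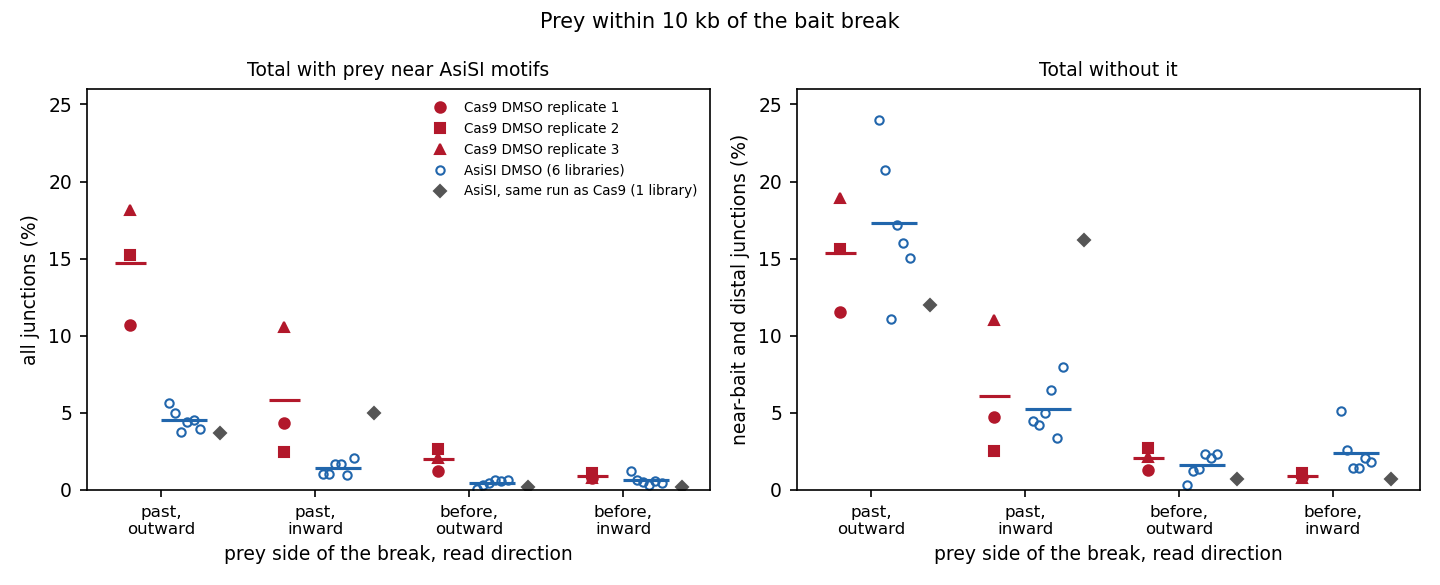
Prey within 10 kb of the bait break by side and read direction (x axis) as a share of all junctions (left, %) and of near-bait and distal junctions, with motif prey left out of the total (right, %). Each point is a library, red for Cas9 DMSO, blue for AsiSI DMSO and grey for the AsiSI library of the Cas9 run, and bars are group means. On the left outward prey past the break is at 10.7% to 18.1% with Cas9 and at most 5.63% with AsiSI, while on the right the Cas9 libraries, at 11.6% to 18.9%, lie within the AsiSI range of 11.1% to 23.97%.

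Past 10 kb from the break the counts on chromosome 2 were smaller. In the 1-Mb window that holds the bait, 28, 35 and 17 distal junctions lay in the Cas9 libraries and between 0 and 4 in the AsiSI libraries, or 10.3 against 2.05 per 1000 distal junctions. On the scale of log2 of junctions per 1000 after adding 0.5, the difference was 2.00 (SE 0.688) and did not pass across all windows (limma, adjusted p = 0.0715). It passed without repeats, at 2.10 (limma, adjusted p = 0.000331). Prey on chromosome 2 within 5 Mb was 4.78%, 5.13% and 2.82% of distal prey without repeats with Cas9 and between 1.71% and 2.57% with AsiSI (adjusted p = 0.0357, exact permutation test), but 8.85% in the same-run AsiSI library. For all of chromosome 2, the Cas9 shares of 20.8%, 14.5% and 16.6% of distal prey overlapped the AsiSI range of 11.1% to 19.3%, and the same-run AsiSI library had 32.3% (adjusted p = 0.607, exact permutation test). Without repeats the Cas9 mean of 16.8% ± 1.59 (SD, n = 3) was above the AsiSI mean of 11.5% ± 2.21 (SD, n = 6; adjusted p = 0.0253, exact permutation test), with the same-run AsiSI library at 31.7%, above every library of both groups.

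Cubn, the gene next to Rsu1, which encodes the endocytic receptor cubilin, held 6, 10 and 6 distal junctions with Cas9 and 0 in all 6 AsiSI libraries. Gm13270, a noncoding gene on the other strand that overlaps Cubn and so shares junctions with it, held 3, 8 and 6 against 0. Both were chosen after their values were seen and did not pass in the fit over 49 genes (limma, adjusted p = 0.0685 and 0.207). They passed when the added count was set in proportion to library size, with adjusted p of 0.000178 and 0.000366 by limma. That count gives every library without a junction the same value, so the AsiSI group had no spread by construction. Both genes also reached the filter through Cas9 junctions only, so these p-values do not serve as support.

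Prey at other AsiSI motifs separated the groups most. Junctions within 500 bp of a motif made up 1.26%, 0.539% and 4.55% of prey away from the bait with Cas9. With AsiSI they made up 64.2% in the lowest library, 75.1% at the median and 80.5% in the highest, and 73.4% in the same-run AsiSI library. The means were 2.12% ± 2.14 (SD, n = 3) and 74.6% ± 5.63 (SD, n = 6; adjusted p = 0.0337, exact permutation test). The direction of this difference was given in advance, since the methods give the Cas9 cells no AsiSI.

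The Cas9 libraries nonetheless held 32, 17 and 108 junctions at motifs, although the methods give these cells no AsiSI. The motifs with the most of them were those next to Arhgap11a (chr2:113847994-113848001) and Romo1 (chr2:156144260-156144267), a mitochondrial gene, with 6 junctions each. Pip4k2a, a lipid kinase gene, had 5, and Nup214, a nuclear pore gene, and Gm13610 had 4 each. All 5 are on chromosome 2 and are frequent prey with AsiSI, where Romo1 held between 45 and 165 junctions per library. Of the motif junctions in Cas9 replicates 1, 2 and 3, 68.8%, 58.8% and 70.4% had the same prey position, strand, bait end and following 12 bases as a junction of the 2 AsiSI libraries in the same run. For motif junctions of AsiSI replicates 3, 4 and 6, the same match was found for 42.0%, 44.0% and 37.1%. A match in an AsiSI library of another run was found for 87.5%, 82.4% and 87.0% of the Cas9 motif junctions and for 69.0%, 70.0% and 65.7% of those of AsiSI replicates 3, 4 and 6. The pools differed in size, with 7158 junctions of 2 libraries to match in the same run and 71419 of 24 libraries in other runs. For the AsiSI replicates the second pool was 23 libraries. The same-run and other-run rates can therefore not be set against each other. Of 19 motif joins without shared bases in the Cas9 libraries, 1 ended at the Cas9 cut and 10 within 2 nt of the AsiSI cut on the short side, whereas 2246 of 4598 Cas9 joins to distal prey ended at the Cas9 cut. Whether these junctions arose in the Cas9 cells was not tested.

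Off-target prey of the guide was near the limit of these data. The genome held 52 sites besides the target with at most 4 mismatches and an NGG or NAG. Of the distal prey of the 3 Cas9 libraries, 1 junction lay within 500 bp of such a site, in replicate 1 (0.0409%), and 0 in the 6 AsiSI libraries (p = 0.333, exact permutation test). The site is in Rnf213, a ubiquitin ligase gene, on the plus strand at chr11:119424678-119424697. It is shown with its PAM and with its mismatches T6C, G13C, G17T and G19C in capitals, counted from 1 at the guide's 5′ end with the guide's base first.
Rnf213 site: ccctgCcccagcCatcTcCccag

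The distal prey was then compared across the genome by limma, on log2 of junctions per 1000 distal junctions after adding 0.5. Of 174 windows of 1 Mb with at least 10 distal junctions over the 9 libraries, 8 were called (4.6%), 7 lower (4.02%) and 1 higher (0.575%) with Cas9. Of 49 genes, 7 were called (14.3%), all lower with Cas9. In each called window and gene only the higher group held 10 or more junctions. These features passed the filter through that group alone, so their p-values do not serve as support. The split of directions depended on the added count, which weighs more in a library of 193 distal junctions than in one of 3103. With an added count in proportion to library size, 33 windows were called, 29 of them higher with Cas9, and 14 genes, 10 of them higher. In 26 of the 29 higher windows most Cas9 junctions lay in repeat windows or were telomeric reads, and in 26 most came from Cas9 replicate 2, which held 592 of their 777 Cas9 junctions. The same was so for 8 and 8 of the 10 higher genes, and the others were Cubn and Gm13270. The 10 higher genes held no AsiSI junction, and under that count such libraries share a single value, which leaves their group no spread. The 3 higher windows not mostly in repeats were on chromosome 2, the window of the bait, the one after it and chr2:32000001-33000000, which held 11 Cas9 and 0 AsiSI junctions. The 4 genes lower in both fits were Sc5d, Jmy, Ralb and Txnrd1, and the 4 windows lower under the second count were those of these genes.

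Sc5d encodes a sterol desaturase of cholesterol synthesis. It held 1, 0 and 1 distal junctions with Cas9 and 2, 4, 15, 10, 3 and 13 with AsiSI, and its log2 difference was -4.73 (SE 0.691; limma, adjusted p = 8.7e-10). Jmy, which encodes an actin nucleator that is also a p53 cofactor, held 0 in each Cas9 library and 3, 3, 8, 5, 3 and 10 with AsiSI. Against a floor of 3 junctions over the Cas9 group it was at least 17-fold lower per 1000 distal junctions (limma, adjusted p = 1.98e-12). All 6 AsiSI libraries held junctions in both genes.

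Ralb, a small GTPase gene, held 0 junctions with Cas9 and 1, 2, 5, 4, 0 and 7 with AsiSI, at least 10.1-fold lower on the same floor (limma, adjusted p = 3.33e-08). Txnrd1, which encodes a thioredoxin reductase of the cytosol, held 0 with Cas9 and 2, 1, 4, 5, 0 and 4 with AsiSI, at least 8.51-fold lower (limma, adjusted p = 9.31e-08). In these, AsiSI replicate 5 had no junction and overlapped the Cas9 libraries. Jmy, Ralb and Txnrd1 held AsiSI junctions only, and Sc5d too reached the filter through AsiSI junctions. The p-values and fold values of these genes thus describe genes picked by that group's counts. With the proportional count the adjusted p of Jmy, Ralb and Txnrd1 was 0.000366, 0.0236 and 0.0271, and that of Sc5d 0.000539 (limma).

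In each of the 4 genes most junctions lay within 100 bp around a sequence 1 base away from the AsiSI motif, within 887 bp of an annotated transcription start. The sites are shown because their prey sits where mm10 has no exact motif. They are from the plus strand of mm10, with the 8 bases that match all but 1 position of the motif in capitals. The changes give the motif's base first, the position from 1 at the 5′ end of those 8 bases, and the reference base.
Sc5d, T5C, chr9:42264136-42264165: cggggatcctcGCGACCGCccgcgggtcct
Jmy, A4G, chr13:93498835-93498864: gcgtggcactgGCGGTCGCatctcgggatt
Ralb, G3A, chr1:119504482-119504511: ctaggaggcctGCAATCGCgcggagagcgt
Txnrd1, G3A, chr10:82859677-82859706: ccttggaattgGCAATCGCatgtttcctag

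Within 50 bp of these sites the 9 libraries held 44 junctions at Sc5d, 25 at Jmy, 18 at Ralb and 14 at Txnrd1. Over the 26 AsiSI libraries of every treatment the same sites held 269, 170, 89 and 90, in 26, 26, 22 and 21 libraries. The base that differs lay inside the overlap of bait and prey in nearly all reads. Outside the overlap, 2 reads at Sc5d and 2 at Ralb showed the motif's base and 0 showed the reference base. At Jmy and Txnrd1 no read was informative. The mm10 reference holds 71535 sites 1 base from the motif, and 0.262% of the genome lies within 50 bp of one. Distal prey lay that close in 0.368%, 0.226% and 0.178% of cases with Cas9 and between 1.72% and 4.15% with AsiSI, where all 6 libraries were the higher. The sites shown above, picked from these same junctions, made up most of the AsiSI share. They held 1.37% to 3.63% of distal prey with AsiSI and 0.0409%, 0% and 0.0446% with Cas9. The remaining sites were not tested apart.

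The other called genes were Gm10715 and Gm10720, predicted genes at chr9:3036877-3038316 and chr9:3015654-3017210, and AC147251.1. Gm10715 held 2 junctions with Cas9 and 12 with AsiSI, Gm10720 held 4 and 19, and AC147251.1 held 4 and 10 (limma, adjusted p = 0.000476, 0.0312 and 0.0449). None of these was called with the proportional added count. Of the next by p, Gm10722, 2210408I21Rik and Gm10719, with 8 and 16, 6 and 12, and 13 and 46 junctions, none was called (limma, adjusted p from 0.0503 to 0.0685).

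Of the other called windows, chr17:94000001-95000000, chr1:143000001-144000000 and chr12:28000001-29000000 were lower with Cas9, with 5, 2 and 0 junctions against 24, 10 and 11, and none of them was called with the proportional count. In the last of these, 8 of the 11 junctions were within 100 bp and 8 were from AsiSI replicate 3. The window called higher, chr13:110000001-111000000, held 8, 84 and 7 junctions with Cas9 and 2 in all with AsiSI (log2 difference 2.55, SE 0.741; limma, adjusted p = 0.0149). In that window 91 of the 101 junctions were telomeric reads, and it was no longer tested once repeats were left out. It had reached the filter through Cas9 junctions, most of them from replicate 2. Over the 20 chromosomes limma called 0 (0%), with 3 at an unadjusted p below 0.05 and log2 differences from -0.92 on chromosome 9 to 1.30 on chromosome X. Without repeats it called 1, chromosome 17, lower with Cas9 by a log2 difference of -0.82 (adjusted p = 0.00504).

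Repeat windows and telomeric reads, together called repeats here, filled a large and uneven part of the distal prey. Repeat windows are the 101 windows of 10 kb with at least 10 junctions over the 3 Cas9 CK-666 libraries, which are in neither group. They were set by these counts alone, without an annotation of repeats. The CK-666 libraries share nuclease, cells and run with the Cas9 group, and 60.1% of prey away from the bait in their replicate 2 was telomeric. Windows frequent only with AsiSI were therefore not masked, and every result without repeats rests on this filter. Telomeric reads have at least 3 telomeric units after the bait. Repeat windows and telomeric reads together took 26.4%, 60.5% and 9.90% of distal prey with Cas9, and 3.20%, 36.6% and 45.7% in the lowest, median and highest AsiSI libraries. The groups overlapped and did not pass (adjusted p = 0.999, exact permutation test). The same-run AsiSI library had 4.57%.

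The telomeric reads alone separated the groups. Of prey away from the bait they took 3.51%, 46.1% and 3.24% with Cas9, and 0%, 0.0224% and 0.669% in the lowest, median and highest AsiSI libraries (adjusted p = 0.0357, exact permutation test), with 0.296% in the same-run AsiSI library. Motif prey, which fills most of the AsiSI libraries, is part of this total. Of distal prey alone the telomeric reads took 3.64%, 46.8% and 3.39% with Cas9, at most 2.14% with AsiSI and 1.23% in the same-run AsiSI library, so the groups stayed apart (p = 0.0119, adjusted p = 0.155, exact permutation test). Reads into the C-rich strand were the larger part, 1409 of 1455 in Cas9 replicate 2, 57 of 89 in replicate 1 and 63 of 77 in replicate 3.

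The 1455 telomeric junctions of Cas9 replicate 2 had 242 distinct scars. A bait end at the last motif base followed by AGGC, here the recurrent join, was in 634 junctions of that library, 563 of them telomeric. The same bait end and AGGC were found in 1 and 3 junctions of Cas9 replicates 1 and 3, of which 0 and 1 were telomeric. They were also found in 4 to 10 junctions per AsiSI library, of which 0 were telomeric. Leaving out the most common scar left 38.2% telomeric reads. The read found in 359 of the 634 is shown with the AsiSI motif, kept whole on the bait side, in capitals and the telomeric units at its end.
Recurrent join of Cas9 replicate 2: GCGATCGCaggcagcctaaccctaacccta

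**Figure D5:**
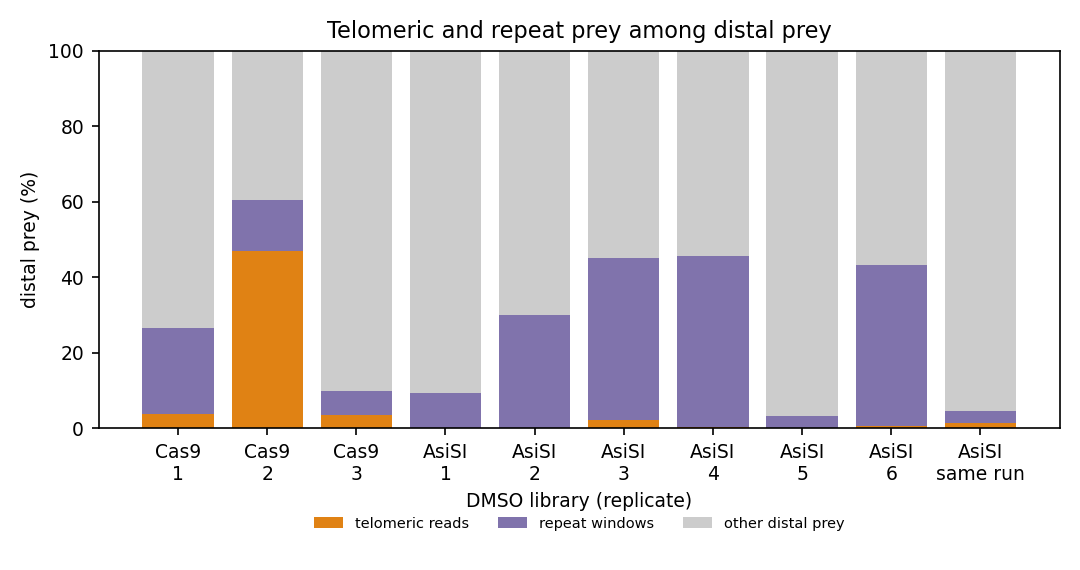
Share of distal prey (y axis, %) that was telomeric reads (orange), lay in repeat windows (purple) or neither (grey) in each DMSO library (x axis). Cas9 replicate 2 has the tallest bar of both kinds together, 60.5%, while AsiSI replicates 1 and 5 and the same-run AsiSI library are low, with 4.57% in the last.

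By annotation, promoters within 3 kb of a transcription start held 36.1%, 22.7% and 24.2% of distal prey with Cas9 and 27.6%, 50.3% and 57.03% in the lowest, median and highest AsiSI libraries (adjusted p = 0.202, exact permutation test). Intergenic prey was at 34.5%, 47.3% and 41.0% with Cas9 and between 23.5% and 35.0% with AsiSI (p = 0.0238, adjusted p = 0.0578, exact permutation test). Gene bodies were at 31.5% ± 2.94 (SD, n = 3) and 26.2% ± 8.12 (SD, n = 6). Without repeats the spread narrowed and the promoter share was 20.6% ± 0.543 (SD, n = 3) with Cas9 against 26.7% ± 2.16 (SD, n = 6; adjusted p = 0.0253, exact permutation test). The same-run AsiSI library lay between the groups at 23.6%. Intergenic prey without repeats was then at 40.9% ± 1.21 (SD, n = 3) against 37.4% ± 1.54 (SD, n = 6; adjusted p = 0.045, exact permutation test), with 37.6% in the same-run AsiSI library, inside the AsiSI range.

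Long genes known from common fragile sites, which break under replication stress, were counted as a list of 16. They held 63 Cas9 and 21 AsiSI junctions, or 5.73, 9.35 and 8.92 per 1000 distal junctions with Cas9 and 0, 3.32 and 7.39 in the lowest, median and highest AsiSI libraries. Both groups were under the 9.53 per 1000 of the genome that these genes span. Lrp1b, an LDL-receptor-related gene on chromosome 2, was the member that reached the fit, with 3, 9 and 1 junctions against 7 in all with AsiSI, and was not called (limma, adjusted p = 0.742). Macrod2, an ADP-ribose hydrolase gene also on chromosome 2, held 6 and 1, and Magi2, a scaffold gene, 5 and 2. Ptprd, a receptor phosphatase gene, held 6 and 0, Csmd1 held 5 and 2, Fhit held 3 and 3 and Auts2 held 3 and 2.

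Of 15 genes that fibroblasts express strongly, 4 held any distal junction, 7 with Cas9 and 1 with AsiSI in all, and none reached the fit. Per 1000 distal junctions these were 0.409, 0.645 and 1.78 with Cas9. With AsiSI they were 0, 0 and 0.858 in the lowest, median and highest libraries. The genes span 0.101 per 1000 of the genome, and the counts are too few for a comparison. Thbs1, a secreted matrix glycoprotein gene on chromosome 2, held 4 of the Cas9 junctions, all in replicate 3, and the AsiSI junction.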

How the data were processed

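HTGTS junctions of a bait break at chr2:13271321 were analysed in 3 Cas9 DMSO and 6 AsiSI DMSO libraries. Per the methods, the authors amplified sonicated DNA from the bait, sequenced it on a MiSeq, aligned it to mm10 and kept junctions with a mapping quality over 30 after removing duplicates with the HTGTS pipeline. The tool versions are not given in the sources used here. The submitters' processing notes name the build mm10 for these libraries. The deposited tables list 1 junction per line, with positions and no normalized values. Junctions of the 9 libraries numbered between 1244 and 6597, and shares carry 95% Wilson intervals that cover counting error only.

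Groups and replicate numbers came from the sample titles. No label says that replicates came from separate cultures, so p-values measure the spread between these libraries. The comparison, its shares and its gene lists were chosen with earlier results of these data known. Genes were those of GENCODE vM21, and junctions were assigned to a gene by its span without regard to strand. The 17 shares were tested by exact two-sided permutation of the 9 libraries and 66 further shares, chosen after the data were seen, by the same test with an adjustment of their own, as were 13 shares with motif prey left out of the total. Windows, chromosomes and genes with at least 10 distal junctions were fitted in limma 3.58.1 (R 4.3.3) with a variance trend on log2((junctions + 0.5) / (total + 1) × 1000) and called at an adjusted p of 0.05. Counting used Python 3.11.15. The limma step was tested on simulated counts. Named were the gene at the bait, the 10 windows and 10 genes with the largest differences if 10 were called or else the lowest p, the top 5 motifs in Cas9 libraries, and members of 2 gene lists with at least 5 distal junctions; other genes are said to be chosen later.

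Alternatives were other radii, limits and filters, repeats left out, each prey position counted 1 time, 11 AsiSI DMSO libraries, the same-run library and each library left out. A guide near match was to be named from 3 Cas9 junctions on, which none reached; the Rnf213 site was named after its value was seen.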

Additional observations from a re-analysis of the deposited data

Results flagged for a closer look

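In AsiSI DMSO replicate 3 the share of prey within 500 bp of a motif was 64.2%, low for its group, where the next library had 74.5%. AsiSI DMSO replicate 5 was far from the other 5 libraries in 3 join classes of distal prey. Its blunt joins were at 7.39% (next 15.1%), its overlaps of 6 nt or more at 56.4% (next 21.8%) and its insertions at 12.6% (next 27.4%). These were 4 of 16 shares looked at for a library far from the rest of its group, and chance flags about 1 in 20 groups. Join classes of a library are parts of a whole, so the 3 values of replicate 5 are not independent.

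Telomeric reads were also frequent in 2 libraries outside the comparison. They took 60.1% of prey away from the bait in Cas9 CK-666 replicate 2 and 40.5% in AsiSI NU7441 replicate 2, against 0% to 4.52% in 29 other libraries of the series and 46.1% in Cas9 DMSO replicate 2. Both Cas9 libraries numbered 2 were thus high, and neither CK-666 nor NU7441 replicates of other numbers were. The recurrent join of Cas9 DMSO replicate 2 was found in 2 junctions of Cas9 CK-666 replicate 2, of which 1 was telomeric.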

How the results depend on the processing

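Values are Cas9 minus AsiSI in percentage points. The 6 called shares had 104 alternatives, 102 of them in the main direction. Leaving motif prey out of the total, chosen after seeing the data, turned prey near the bait to -2.13, and the same-run AsiSI library turned bait-end loss to 0.423. Against it, blunt joins were 9.75 higher in distal prey and 7.84 over all prey, long overlaps differed by -0.069 in distal prey and -15.98 over all, short overlaps by -25.0, insertions by 15.3 in distal prey, chromosome 2 by -15.0, promoters by 1.59, gene bodies by -5.66, intergenic prey by 4.07 and repeats by 27.7. Bait-end loss no longer passed from each nuclease's own cut (-3.60), in distal prey (-11.4), without telomeric reads (-5.29) or without the recurrent join (-5.32), the last pair chosen after seeing the data. A limit of 20 nt gave no value, since the longest measurable loss was between 15 and 21 nt. Counting each prey position 1 time left no share called, with near-bait prey at 10.1, loss at -5.77, motif prey at -67.0, blunt joins at 17.3 (distal) and 15.6 and long overlaps at -21.7. With 11 AsiSI DMSO libraries loss (-4.62), blunt joins over all prey (10.4) and long overlaps (-18.4) did not pass. Without repeats chromosome 2 (5.27), promoters (-6.13) and intergenic prey (3.52) passed, and intergenic prey (12.6) also did with distal set at 100 kb. The repeat windows left out were taken from Cas9 libraries only.

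Windows called were 8, with 4 for 11 AsiSI libraries, 2 for replicates 1 to 3 only and 33 with the proportional added count. Genes called were 7, with 15 at an added count of 1, 2 at 20 junctions or more, 3 for replicates 1 to 3 only and 14 with the proportional count. Chromosomes called were 0, and 1 without repeats. The proportional count and replicates 1 to 3 only were chosen after seeing the data.

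With a replicate block over numbers 1 to 3 the exact sign-flip p cannot go below 0.25, and the called shares were 16.2 (near the bait), -4.92 (loss), -72.2 (motifs), 14.9 and 14.3 (blunt, distal and all) and -25.8 (long overlaps); limma called 1 window and 2 genes. The libraries share only a number, since same-numbered deviations over the chromosomes correlated at -0.49, 0.02 and -0.44.

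Leaving out each library in turn gave ranges of 12.3 to 19.5 for prey near the bait, -6.53 to -4.93 for loss, -74.6 to -71.3 for motif prey, 0 to 0.0205 for guide matches, 12.2 to 18.8 for blunt joins in distal prey and 10.2 to 16.6 over all, -3.11 to 5.24 and -2.66 to 5.63 for short overlaps, -19.5 to -8.84 and -30.7 to -23.0 for long overlaps, -11.1 to 5.04 and 1.06 to 17.2 for insertions, 0.0332 to 3.20 for chromosome 2, -22.2 to -15.5 for promoters, 3.53 to 7.46 for gene bodies, 9.52 to 15.95 for intergenic prey and -11.3 to 14.0 for repeats. With 2 Cas9 libraries no p goes below 0.0357, so no share can pass. With AsiSI replicate 1, 2, 3, 4 or 6 left out, the lowest p possible was 0.0179 (exact permutation test), and no called share passed either. The called shares passed without AsiSI replicate 5. Windows ranged from 5 (without AsiSI replicate 6) to 11 (without AsiSI replicate 5), genes from 4 (without AsiSI replicate 3) to 15 (without AsiSI replicate 5) and chromosomes from 0 to 1.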
